A study of Mus musculus with 4 samples.

Results

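The 9 genes described here encode sensors and effectors that recognise viral or double-stranded RNA in mammalian cells, and they were followed in mouse ESCs (embryonic stem cells) after knockdown of Cnot1. They were chosen by name for their known function, with earlier results of these data known. The set holds the cytosolic RNA helicases Ddx58, Ifih1 and Dhx58, the adaptor Mavs and the OAS family genes Oas1a and Oasl1. It also holds the endosomal receptor Tlr3, the RNA editor Adar and the RNA-binding effector Zc3hav1. All 9 were among the 50559 genes listed in the deposited table, and 8 of them passed the filter on low counts that left 18144 genes for testing. After Cnot1 knockdown 5 of these 8 genes fell (Oas1a, Oasl1, Zc3hav1, Ddx58 and Mavs) and none rose. Of all tested genes, 14.7% passed as lower and 15.0% as higher. The calls of Oasl1 and Mavs were lost in some alternative fits. Dhx58, Tlr3 and Adar did not pass the test, and Ifih1 had too few counts to enter it.

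E14 mouse ESCs were grown on gelatin with leukemia inhibitory factor and transfected by lipofection with an siRNA against Cnot1 (siCnot1) or with a non-targeting siRNA (siNT). The siRNAs were used at 150 nM for 48 h, and each group held 2 biological replicates, so the series comprised 4 poly(A)+ RNA-seq libraries. CNOT1 holds together CCR4-NOT, the enzyme complex that shortens mRNA poly(A) tails and so starts mRNA decay. Both groups received a double-stranded RNA by the same route and none of the 4 libraries came from untransfected cells, so a response to transfection that both groups share cannot be seen in this comparison. Which of the study's siRNAs against Cnot1 went into these libraries is not given in the sources used here, all cells were of a single line, and effects of the siRNA's sequence on other transcripts cannot be told apart from those of Cnot1 loss. A lower value in bulk RNA can come from fewer cells that express a gene or from less RNA per cell. These cannot be told apart, and a difference between the groups in poly(A)+ capture was not tested. Counts were scaled to each library, so a fall or rise here is relative to the other transcripts of that library.

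RIG-I (the product of Ddx58) and MDA5 (Ifih1) bind viral RNA in the cytosol and signal through MAVS on mitochondria to the kinase TBK1 and the transcription factor IRF3, which switches on interferon beta. Interferon then acts through its receptor and JAK-STAT signalling to raise interferon-stimulated genes, among them most of the sensors themselves, so the pathway normally amplifies its own detectors. OAS proteins make an oligoadenylate messenger that leads to RNA cleavage, TLR3 samples double-stranded RNA inside endosomes, and ADAR and ZAP (Zc3hav1) act on the RNA itself. Pluripotent cells are known for weak interferon production.

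The sequences below are shown because the interferon-stimulated genes of this system share a short promoter element, a binding site of interferon regulatory factors. The letters searched were GAAANNGAAA on both strands (TTTCNNTTTC on the other), in windows from 250 bases before to 50 bases after each start site, from RefSeq on GRCm38.p6. Of 32851 such promoters 1131 held a match (3.44%). Among the members, Oas1a held 2 overlapping matches, Ddx58 held 1 on the other strand and Ifih1 held 1, while the windows of Mavs, Oasl1, Tlr3, Zc3hav1 and all 3 listed Adar start sites held none. Dhx58 matched no entry. Matches are in capitals and every sequence reads 5′ to 3′ on the strand of its gene. The first is the 80 bases before the Oas1a start site (chr5:120907526-120907605, minus strand), where the matches begin 20 and 14 bases before the start.
Oas1a: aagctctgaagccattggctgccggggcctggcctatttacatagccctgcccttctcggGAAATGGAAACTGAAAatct
The same stretch of its neighbour Oas1g (chr5:120887614-120887693, minus strand) is given because the transcripts of both genes share much of their sequence. At a shift of 2 bases it was identical to that of Oas1a at 77 of 78 aligned bases.
Oas1g: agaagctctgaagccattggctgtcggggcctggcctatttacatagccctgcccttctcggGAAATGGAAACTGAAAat
Isg15 (chr4:156200819-156200898, minus strand) is a classical interferon-stimulated gene with 3 overlapping matches, shown to set beside its near absence from the counts.
Isg15: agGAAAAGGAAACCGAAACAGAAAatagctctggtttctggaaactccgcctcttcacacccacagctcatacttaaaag
The matches of both helicase genes lay after the start site, and 30 bases around each are shown (Ddx58 at chr4:40239804-40239833 and Ifih1 at chr2:62646206-62646235, both on the minus strand).
Ddx58: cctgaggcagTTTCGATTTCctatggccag
Ifih1: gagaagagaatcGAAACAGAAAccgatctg
A match describes these letters only and does not show that a factor binds there.

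Cnot1 itself fell from 949 ± 51.7 CPM in siNT (SD, n = 2) to 188 ± 5.14 CPM in siCnot1, 19.8% of the siNT mean (log2 fold change -2.33, SE 0.059, adjusted p 2.37e-18, edgeR quasi-likelihood test, Benjamini-Hochberg). CPM here are library-scaled counts on genes after TMM normalization. Library totals ran from 32135824 to 32557440 counts, and 3 counts corresponded to 0.0896 to 0.0964 CPM, used below as a floor. That floor covers counting error only and takes each count as independent, which was not tested. In the whole experiment 15.0% of tested genes passed the test as higher in siCnot1 and 14.7% as lower, 29.7% in all, and the median log2 fold change was 0.0084. Regardless of any test, both siCnot1 libraries lay below both siNT libraries for 31.2% of the tested genes and above them for 32.7%. All 10 pluripotency markers passed the filter and 8 of them fell (median log2 fold change -0.20), with a summed level of 7699 to 7971 CPM in siNT and 6398 to 6706 CPM in siCnot1. Fibroblast markers summed to 12.4 to 15.5 CPM in siNT and 19.1 to 20.9 CPM in siCnot1, with 2 of the 4 tested passing as higher (Col1a1 and Pdgfra) and Col3a1, Dcn and Fap at 0 counts in every library. Leukocyte and macrophage markers summed to 103 to 110 CPM in siNT and 138 to 151 CPM in siCnot1, with 2 of 5 tested passing as higher (Laptm5 and Cd68) and Tyrobp at 0. The part of these shifts in the results below was not tested.

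Ddx58 encodes RIG-I, the helicase that recognises short viral RNAs with a triphosphate end. It spans chr4:40203775-40239843 on the minus strand and has 18 exon blocks. Its position and the other gene positions below are those of the deposited table, read here as GRCm39. The siNT libraries held 1037 and 1156 counts and the siCnot1 libraries 842 and 824, or 33.3 and 36.9 CPM against 25.1 and 24.6 CPM. Both siCnot1 values were below both siNT values, and the siCnot1 pair lay close together. The mean fell from 35.1 ± 2.51 to 24.9 ± 0.362 CPM (SD, n = 2), 70.9% of siNT, with a log2 fold change of -0.50 (SE 0.098, adjusted p 0.000438, edgeR quasi-likelihood test, Benjamini-Hochberg).

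Ifih1 encodes MDA5, the helicase that recognises long double-stranded RNA (chr2:62426137-62476599, minus strand, 17 exon blocks). It had 4 and 8 counts in siNT and 2 and 4 counts in siCnot1. The values were 0.129 and 0.255 CPM against 0.0597 and 0.120 CPM, so that 1 siCnot1 library was under the floor and no value exceeded it by more than a few counts. The groups did not overlap in CPM, but the gene was below the filter. A fit with no filter gave a log2 fold change of -1.07 with an SE of 1.05 (adjusted p 0.587, edgeR quasi-likelihood test, Benjamini-Hochberg), and a difference was not detectable at this depth.

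Dhx58 encodes LGP2, a helicase that lacks the signalling domains of RIG-I and MDA5 and tunes their activity (chr11:100585710-100595165, minus strand). It had 14 and 12 counts in siNT and 27 and 11 in siCnot1, or 0.450 and 0.383 CPM against 0.806 and 0.329 CPM. The siCnot1 libraries stood on either side of the siNT pair, so the groups overlapped and the higher mean came from siCnot1 replicate 1. The log2 fold change was 0.44 with a 95% interval from -0.86 to 1.74 (adjusted p 0.65, edgeR quasi-likelihood test, Benjamini-Hochberg), and without siCnot1 replicate 1 it was -0.34. Of the 3 helicases, only the one with substantial counts, Ddx58, gave a difference that passed the test. The interval of Dhx58 and the SE of Ifih1 leave room for changes as large as that of Ddx58.

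Mavs, the mitochondrial adaptor on which RIG-I and MDA5 converge, lies at chr2:131075445-131089945 on the plus strand. It had 1536 and 1405 counts in siNT and 1282 and 1204 in siCnot1, or 49.4 and 44.8 CPM against 38.3 and 36.0 CPM. The groups did not overlap. The mean fell from 47.1 ± 3.22 to 37.1 ± 1.62 CPM (SD, n = 2), 78.8% of siNT and the smallest of the 5 changes that passed, with a log2 fold change of -0.34 (SE 0.089, adjusted p 0.00513, edgeR quasi-likelihood test, Benjamini-Hochberg). With no filter on low counts the adjusted p was 0.0544. It was 0.123 without siNT replicate 1, 0.0503 without siCnot1 replicate 1 and 0.110 without siCnot1 replicate 2, and stayed under the threshold without siNT replicate 2 (0.043).

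**Figure D1:**
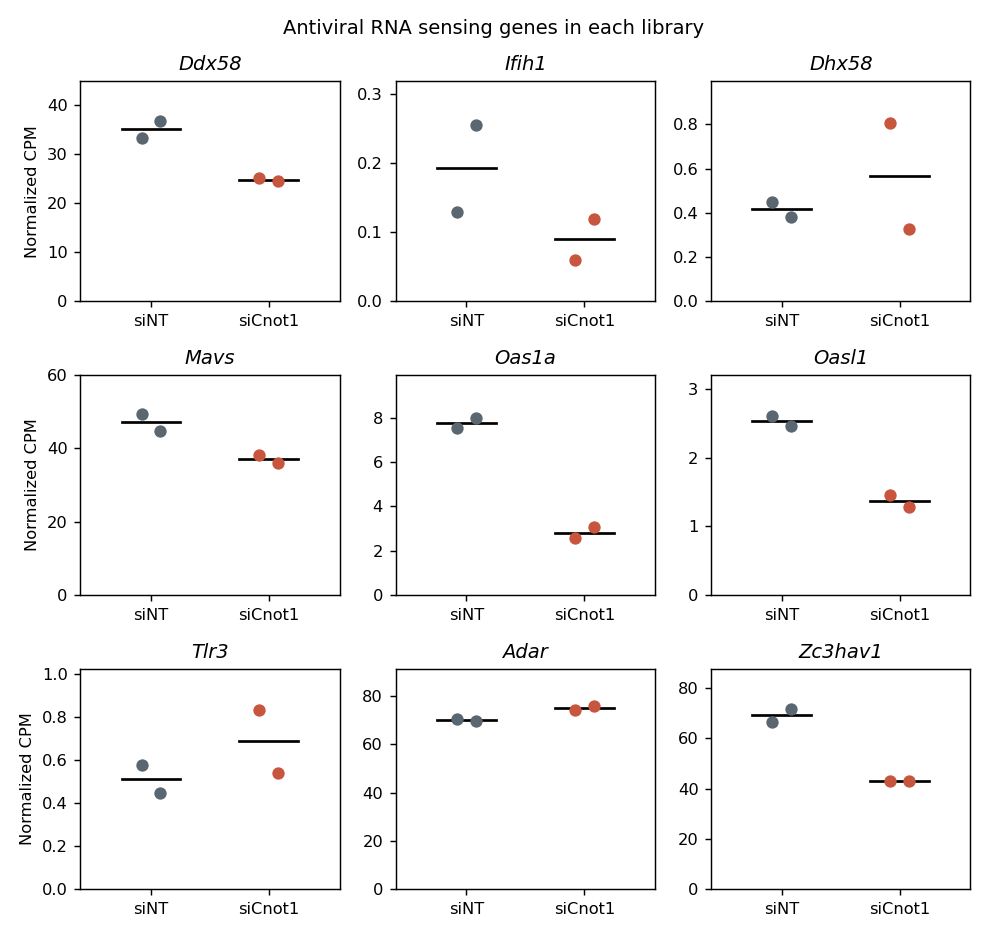
TMM-normalized CPM of each of the 9 genes in each library (y axis, linear from 0, with its own range per gene), with siNT in grey and siCnot1 in red; each point is 1 library and each bar the mean of 2. The siCnot1 points lie below both siNT points for Ddx58, Ifih1, Mavs, Oas1a, Oasl1 and Zc3hav1. They lie above them for Adar (74.2 and 75.9 against 70.3 and 69.7 CPM) and overlap them for Dhx58 and Tlr3.

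Oas1a encodes an oligoadenylate synthetase that is switched on by double-stranded RNA (chr5:121034319-121045605, minus strand, 7 exon blocks). It had 235 and 251 counts in siNT and 86 and 103 in siCnot1, or 7.55 and 8.01 CPM against 2.57 and 3.08 CPM. Neither siCnot1 library came near the siNT pair. The mean fell from 7.78 ± 0.321 to 2.82 ± 0.361 CPM (SD, n = 2), 36.3% of siNT or 2.75-fold lower, with a log2 fold change of -1.46 (SE 0.20, adjusted p 6.96e-06, edgeR quasi-likelihood test, Benjamini-Hochberg). It was the largest change among the 9 genes, and only 0.887% of the 18144 tested genes had a log2 fold change this low or lower. The call held in every alternative setting and with each library left out in turn.

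Oas1a sits in a cluster of near copies on chromosome 5, and 40.9% of the 100-base stretches of its transcript also occur in Oas1g, so reads from these genes may have been split or discarded in counting and the value of each is uncertain. Oas1g, another active synthetase gene, had 94 and 97 counts in siNT and 55 and 34 in siCnot1 and also fell (log2 fold change -1.20, adjusted p 0.00498, same edgeR test). That call was lost with no filter (adjusted p 0.0567), without siCnot1 replicate 2 (0.0935) and without siNT replicate 1 (0.112) or 2 (0.108). Oas1c had 32 and 31 counts against 49 and 42 (log2 fold change 0.43, adjusted p 0.454), and it is the one other Oas1 gene that passed the filter. Oas1b (6 and 10 against 2 and 3 counts), Oas1e (4 and 0 against 0 and 0), Oas1f (8 and 1 against 6 and 5) and Oas1h (2 and 1 against 0 and 0) were below it, and Oas1d was at 0 in every library. A single summed gene does not depend on how reads were divided among Oas1a to Oas1h, but it would still lack any discarded reads. Taken so, the family had 381 and 391 counts in siNT and 198 and 187 in siCnot1. The sum fell by 1.10 on the log2 scale (SE 0.15, adjusted p 7.04e-06, edgeR quasi-likelihood test, Benjamini-Hochberg).

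Oasl1 encodes an OAS-like protein without synthetase activity (chr5:115061236-115075970, plus strand). It had 81 and 77 counts in siNT and 49 and 43 in siCnot1, or 2.60 and 2.46 CPM against 1.46 and 1.29 CPM. The groups did not overlap, at low counts. The mean fell from 2.53 ± 0.104 to 1.37 ± 0.126 CPM (SD, n = 2), 54.3% of siNT, with a log2 fold change of -0.88 (SE 0.31, 95% interval -1.52 to -0.23, adjusted p 0.0356, edgeR quasi-likelihood test, Benjamini-Hochberg). The call was lost with library totals in place of TMM (adjusted p 0.0648), with no filter (0.0736) and with DESeq2 (0.144), and whichever library was left out (0.103 to 0.164), while the log2 fold change stayed between -0.98 and -0.77 throughout.

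Tlr3 encodes the endosomal receptor for double-stranded RNA (chr8:45848702-45864112, minus strand). It had 18 and 14 counts in siNT and 28 and 18 in siCnot1, or 0.579 and 0.447 CPM against 0.836 and 0.538 CPM. The groups overlapped. The log2 fold change was 0.42 with a 95% interval from -0.74 to 1.57 (adjusted p 0.626, edgeR quasi-likelihood test, Benjamini-Hochberg). That interval is wide enough to hold both a fall like that of Ddx58 and a rise of more than that size.

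Adar encodes the enzyme that edits adenosine to inosine in double-stranded RNA and keeps the cell's own RNA from being sensed by MDA5 (chr3:89621776-89660762, plus strand, 16 exon blocks). It had 2188 and 2186 counts in siNT and 2487 and 2539 in siCnot1, or 70.3 and 69.7 CPM against 74.2 and 75.9 CPM. It was the 1 gene of the 9 with both siCnot1 libraries above both siNT libraries. The log2 fold change was 0.10 (SE 0.070, 95% interval -0.044 to 0.24, adjusted p 0.307, edgeR quasi-likelihood test, Benjamini-Hochberg), an interval that lies wholly above the estimates of the 5 genes that fell. With library totals in place of TMM, a scaling that moved the median of all tested genes to 0.12, Adar passed as higher (log2 fold change 0.21, adjusted p 0.0255).

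Zc3hav1 encodes ZAP, which binds CpG-rich viral RNA and recruits nucleases and decay factors to it (chr6:38282221-38332859, minus strand, 13 exon blocks). It had 2069 and 2247 counts in siNT and 1437 and 1441 in siCnot1, or 66.5 and 71.7 CPM against 42.9 and 43.1 CPM. The siCnot1 libraries were nearly equal and well below both siNT libraries. The mean fell from 69.1 ± 3.66 to 43.0 ± 0.116 CPM (SD, n = 2), 62.2% of siNT, with a log2 fold change of -0.68 (SE 0.080, adjusted p 7.55e-07, edgeR quasi-likelihood test, Benjamini-Hochberg). The fall passed the test in every alternative and with each library left out. Of the Zc3hav1 exon bases, 1868 (23.6%) overlap LOC118567379 on the opposite strand, which had 20 and 21 counts in siNT and 38 and 31 in siCnot1. The library protocol in the labels marks strand (dUTP in the second strand) but the counting setting is not given in the sources used here, so reads of the overlapping part cannot be assigned with certainty.

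**Figure D2:**
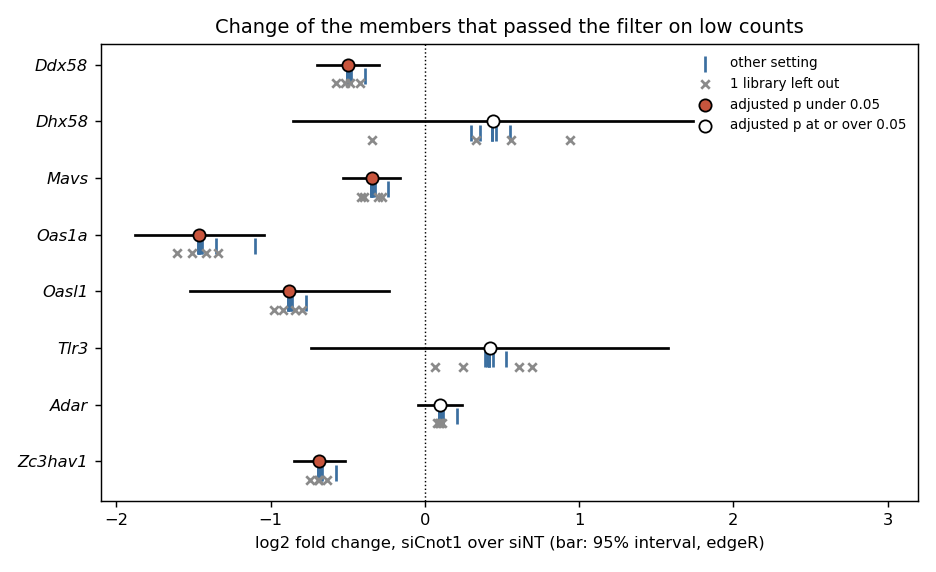
Log2 fold change of siCnot1 over siNT (x axis) for the 8 genes that passed the filter, with the edgeR estimate as a circle (filled where the adjusted p was under 0.05), its 95% interval as a bar, the other settings as blue ticks and the fits with 1 library left out as grey crosses. Oas1a stands farthest to the left at -1.46, Adar has the narrowest interval (-0.044 to 0.24), and only Dhx58 has a cross on the other side of 0 from its estimate.

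Set against the whole table, 5 of the 8 tested genes passed as lower where 14.7% of all tested genes did, and 0 of 8 passed as higher where 15.0% did. The median log2 fold change of the 8 was -0.42, against 0.0084 for all tested genes. Over all 9 genes, 6 had both siCnot1 libraries below both siNT libraries (5 of them among those tested, with Ifih1 below the filter). Of the others 1 had both above and 2 overlapped. Among all tested genes 31.2% had both below and 32.7% both above. The 9 genes are a short list chosen with earlier results of these data known. Their counts were given no test of their own. The summed level of the 9 genes was 231 and 235 CPM in siNT and 186 and 185 CPM in siCnot1, with Adar and Zc3hav1 the most abundant in CPM.

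Levels of different genes were compared as normalized CPM per kb of exon. In siNT the order was Mavs (12.6 ± 0.863), Adar (10.03 ± 0.0597), Zc3hav1 (8.72 ± 0.462), Ddx58 (7.07 ± 0.505), Oas1a (3.87 ± 0.160), Oasl1 (1.12 ± 0.0459), Dhx58 (0.168 ± 0.0192), Tlr3 (0.101 ± 0.0184) and Ifih1 (0.0341 ± 0.0159), each as mean ± SD of 2 libraries on the per-kb scale. No neighbours in that order overlapped in their values. In siCnot1 Adar (10.8 ± 0.165) stood above Mavs (9.96 ± 0.435), followed by Zc3hav1 (5.42 ± 0.0146), Ddx58 (5.01 ± 0.0730), Oas1a (1.40 ± 0.180) and Oasl1 (0.607 ± 0.0555), and Dhx58 and Tlr3 overlapped. These ESCs thus held the transcripts of RIG-I, MAVS, ADAR and ZAP at 7.07 to 12.6 CPM per kb in siNT, and those of MDA5, LGP2 and TLR3 at between 2 and 28 counts a library. The exon length is that of all annotated exons of a gene, not of the isoform in use.

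**Figure D3:**
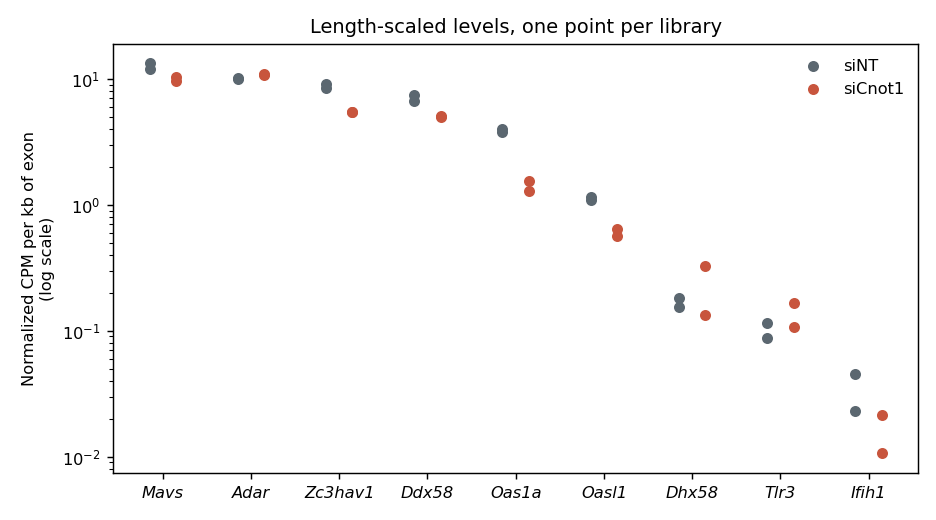
Normalized CPM per kb of exon (y axis, log scale) of the 9 genes, ordered by their siNT mean; each point is 1 library, siNT in grey and siCnot1 in red. Levels run from 12.6 for Mavs to 0.0341 for Ifih1 in siNT, and Adar passes Mavs in siCnot1 (10.8 against 9.96).

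In the lists below, counts stand beside shares of 15.0% higher and 14.7% lower among all tested genes. No list was given a test of its own. The signalling chain between the sensors and interferon beta was represented by 21 tested genes of 22 listed. Of these, 0 passed as higher and 5 as lower (median log2 fold change -0.034). The 3 with the smallest p were Tax1bp1, an autophagy receptor that restrains MAVS signalling (-0.36, adjusted p 3.66e-05), Trim25, the ubiquitin ligase that activates RIG-I (-0.23, 0.00332), and the kinase Riok3 (-0.26, 0.00332), all by edgeR's quasi-likelihood test. Tax1bp1 kept its call in every alternative and with each library left out. Trim25 lost it with library totals (adjusted p 0.0869) and without siCnot1 replicate 1 (0.107), siNT replicate 1 (0.0610) or siNT replicate 2 (0.102), and Riok3 with library totals (0.0711), no filter (0.0515) and without siCnot1 replicate 1 (0.0635), siCnot1 replicate 2 (0.0766) or siNT replicate 2 (0.103). Tbk1 had 997 and 1077 counts against 1304 and 1238 (log2 fold change 0.19, adjusted p 0.124), and Irf3, the transcription factor at its end, had 465 and 603 against 551 and 590 (-0.00, 0.985). Neither passed the test. Irf7, which amplifies the response, had 2 and 3 counts in siNT and 10 and 2 in siCnot1 and was below the filter. Ifnb1, the product of the chain, was at 0 in every library. If each count is independent, this allows up to 3 counts, or 0.0896 to 0.0964 CPM.

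In the OAS pathway 6 of 13 listed genes were tested and 2 passed as lower, Oas1g and Abce1, the latter a ribosome recycling factor (log2 fold change -0.32, adjusted p 0.000161, edgeR). The median of this list was 0.015. Of the other double-stranded RNA binding proteins 16 of 16 were tested, with 2 higher and 5 lower and a median of -0.10. Zcchc3, a cofactor of RIG-I and MDA5, rose (0.29, adjusted p 0.00351), and the small RNA processing genes Dicer1 (-0.24, 0.00476) and Dgcr8 (-0.27, 0.00514) fell. Eif2ak2, the kinase PKR that halts translation on binding double-stranded RNA, had 918 and 911 counts against 840 and 714 and fell by 0.34 on the log2 scale (adjusted p 0.0174, edgeR). The calls of Zcchc3, Dicer1, Dgcr8 and Eif2ak2 were each lost in some fits. With library totals the adjusted p was 0.105 for Dicer1, 0.0781 for Dgcr8 and 0.109 for Eif2ak2, and with no filter it was 0.0587, 0.0694 and 0.106. Without siCnot1 replicate 1 Dicer1 (0.103) and Dgcr8 (0.166) lost their call, and without siCnot1 replicate 2 Zcchc3 (0.122), Dicer1 (0.0636) and Eif2ak2 (0.237) did. Without siNT replicate 1 it was lost for Zcchc3 (0.0793), Dgcr8 (0.110) and Eif2ak2 (0.181), and without siNT replicate 2 for Zcchc3 (0.0886), Dicer1 (0.123), Dgcr8 (0.122) and Eif2ak2 (0.144). Abce1 passed in every one of these fits.

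Among 10 cofactors of ZAP and related antiviral CCCH zinc finger and PARP genes, all tested, 2 rose and 4 fell, with a median of 0.029. Parp12, an interferon-stimulated relative of ZAP, fell by 0.75 on the log2 scale (adjusted p 2.06e-05), as did Zc3h12a, the RNase Regnase-1 (-0.51, 0.000314), and Khnyn, the nuclease cofactor of ZAP (-0.52, 0.00185, all edgeR). Parp12 and Zc3h12a passed in every alternative, while Khnyn did not with no filter (adjusted p 0.0915) or without siCnot1 replicate 1 (0.121) or siNT replicate 1 (0.190). The change farthest from 0 in this list went the other way: Parp10, named here after its values were seen, had 29 and 14 counts in siNT and 121 and 49 in siCnot1 (1.88, adjusted p 0.00208, edgeR). Its call was lost with no filter (0.106) and without siCnot1 replicate 1 (0.236), siNT replicate 1 (0.103) or siNT replicate 2 (0.198). Of the other endosomal and cytosolic nucleic acid sensors 7 of 12 were tested, 1 rose and none fell (median 0.39). Aim2, the cytosolic DNA sensor, had 360 and 407 counts in siNT and 1203 and 972 in siCnot1 (1.40, adjusted p 8.97e-09, edgeR), a change opposite in sign to those of the RNA sensors that passed.

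Interferons, their receptors and the JAK-STAT genes held 13 tested genes of 22, with 1 higher and 1 lower (median 0.024), and 7 of the 22 were at 0 in every library. Il10rb, a receptor chain of lambda interferons, fell (-0.83, adjusted p 0.00304) and Stat2 was just past the threshold as higher (0.21, adjusted p 0.0457, edgeR). Il10rb did not pass without siCnot1 replicate 2 (adjusted p 0.0542), siNT replicate 1 (0.0769) or siNT replicate 2 (0.0627). Stat2 did not pass with DESeq2's size factors (0.0511), no filter (0.101), the replicate block (0.0752) or DESeq2 (0.0961), nor with any 1 library left out (0.148 to 0.216). Ifnar1 had 1607 and 1680 counts against 1787 and 1806 (log2 fold change 0.03, adjusted p 0.837, edgeR) and did not pass. Transcripts of this receptor chain were thus well above the floor in both groups, while none of interferon beta was counted.

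Of 40 interferon-stimulated genes outside the 9, 26 were tested, 9 rose and 4 fell, and the median log2 fold change was 0.65. The summed level of the 40 genes was nevertheless lower, at 417 and 411 CPM in siNT against 393 and 384 CPM in siCnot1. The list was mixed: Tap1, the peptide transporter of antigen presentation, had 66 and 70 counts in siNT and 519 and 327 in siCnot1 (2.53, adjusted p 8.62e-09), and the class I gene H2-D1 rose (1.06, 9.48e-06), whereas Xaf1, a proapoptotic gene, fell (-0.77, 4.01e-07, all edgeR). Tap1 and Xaf1 passed in every alternative, and H2-D1 in all but the fit without siNT replicate 2 (adjusted p 0.0589). The number of genes of the list that passed as higher was 5 with DESeq2 or with no filter and 2 to 6 with a library left out. Isg15 had 0 and 0 counts in siNT and 4 and 2 in siCnot1, and Ifit1 had 0 and 0 against 4 and 4, so both were at or near the floor. Ifit2, named here after its values were seen, was above it, with 85 and 92 counts against 139 and 129 (0.50, adjusted p 0.125, edgeR). Among 8 tested NF-kB response genes of 13 listed, 1 rose and 2 fell (median -0.38). Bcl3 (-0.80, adjusted p 2.56e-07) and Nfkb2 (-0.50, 0.0426) fell and Icam1 (0.25, 0.00228, all edgeR) rose. Bcl3 passed in every alternative. Icam1 did not pass without siCnot1 replicate 1 (adjusted p 0.110), siNT replicate 1 (0.0780) or siNT replicate 2 (0.0886), and Nfkb2 passed in only 1 of the fits with a library left out, that without siNT replicate 2 (0.0366, against 0.205 to 0.603), and not with library totals (0.114), no filter (0.265), upper-quartile scaling (0.0520), the replicate block (0.0501), limma-voom (0.0696) or DESeq2 (0.141).

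**Figure D4:**
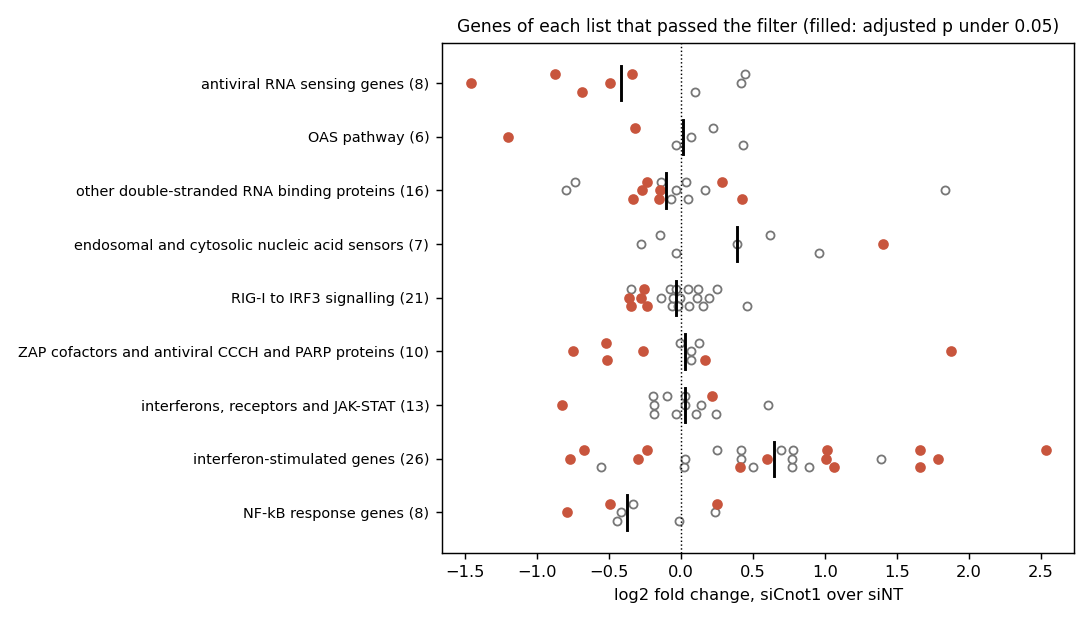
Log2 fold change of siCnot1 over siNT (x axis) of every tested gene in the 9 antiviral RNA sensing genes and in 8 lists of the surrounding pathway, 1 row per list with the number tested in brackets; each point is a gene, filled where its adjusted p was under 0.05, and each bar is the median. The median is -0.42 for the RNA sensing genes and 0.65 for the interferon-stimulated genes, with the largest rise at 2.53 (Tap1).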

How the data were processed

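RNA-seq was available for E14 mouse ESCs transfected with siNT or siCnot1, with 2 libraries per group. The authors deposited raw counts per gene, neither normalized nor pooled, with exon positions and lengths. The submitters' processing notes name fastp 0.19.4, HISAT2 2.2.1, DESeq2 1.40.2 and mm10, and the counting program and strand setting are not given in the sources used here. The deposited starts of 8 of the 9 genes differ by over 5000 bases from those of GRCm38 (mm10) and were read as GRCm39, whereas promoter windows are GRCm38.p6, so no position of one was set against the other. Dose and time come from the study's methods.

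Counts were tested with edgeR 4.0.16 in R 4.3.3 (TMM scaling, filterByExpr with a minimum count of 10, quasi-likelihood test, group as the only term), with Benjamini-Hochberg adjustment over 18144 genes and a threshold of 0.05. The SE was obtained by dividing the absolute log2 fold change by the root of F, and 95% intervals use the moderated degrees of freedom. The edgeR fit was tested on simulated counts. Of 200 genes changed 2-fold, 128 passed the test, and 12 other genes passed falsely, with 17655 genes tested. In the data 29.7% of genes passed, some with smaller changes, so these figures do not give the power or error rate there. Replicate libraries differed by more than sampling noise (chi-square per degree of freedom 6.57 in siNT and 5.57 in siCnot1), and the biological coefficient of variation was 0.0721. Libraries with the same number did not deviate together from the means of their groups (r = 0.0109 across genes, which are not independent replicates), so replicate numbers were not taken as pairs.

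The 9 genes and the surrounding lists were chosen with earlier results of these data known. Named genes are the 9, Cnot1, Isg15, Ifit1, Irf3, Irf7, Ifnb1, Eif2ak2, Tbk1, Ifnar1, the other Oas1 genes and, per list, up to 3 genes with the smallest p among those that passed. Marker genes with no counts in any library are named as well, and so is the gene that overlaps Zc3hav1. Others are said to be named after their values were seen. Some genes of this rule are not reported here. Alternatives were 3 other scalings, 2 other filters, DESeq2 1.42.0, limma-voom (limma 3.58.1), a summed Oas1 family and the replicate number as a block. DESeq2 was run on the 30308 genes with any count and with its own size factors. That alternative thus changes filter, scaling and test together. Each library was also left out in turn, where the lone library of a group is assumed to vary like the other group.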

Additional observations from a re-analysis of the deposited data

How the results depend on the processing

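Low counts limit Ifih1, Dhx58, Tlr3 and Oasl1. In every library 60.9% to 61.5% of the genes with 1 to 12 counts had an even count, and genes with 2 counts (2017 to 2149) outnumbered those with 1 (1173 to 1275). How this bears on the precision of low genes and on the floor of 3 counts was not tested. Ddx58, Oas1a and Zc3hav1 passed the test in every alternative and with each library left out. The fold change of Dhx58 reversed to -0.34 without siCnot1 replicate 1 and reached 0.94 without siCnot1 replicate 2. No other of the 8 genes that passed the filter changed direction. Ifih1 was not in the fits with a library left out. With each library left out in turn, 3 to 4 of the 9 genes passed as lower, and 743 to 1439 of all genes passed as higher and 871 to 1463 as lower. The cause of the changes below was not tested, except that fits without a library rest on fewer samples.

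With library totals in place of TMM, 1 of the 9 genes (Adar) passed as higher and 1563 of all genes as lower. In the 8 pathway lists together 12 passed as lower, with 0 double-stranded RNA binding proteins, 2 RIG-I to IRF3 genes and 1 NF-kB gene among them, while 1 RIG-I to IRF3, 2 JAK-STAT and 2 NF-kB genes passed as higher. With no filter on low counts 3 of the 9 genes passed as lower (Ddx58, Oas1a and Zc3hav1), 1303 of all genes passed as higher and 1450 as lower, and in the lists 8 passed as higher and 12 as lower. Those higher included 1 double-stranded RNA binding protein, 0 ZAP cofactors, 0 JAK-STAT and 5 interferon-stimulated genes, and those lower 1 OAS, 0 double-stranded RNA binding protein, 2 RIG-I to IRF3 and 1 NF-kB genes. DESeq2 called 10 genes of the lists higher, of which 1 was a double-stranded RNA binding protein, 0 JAK-STAT and 5 interferon-stimulated genes, and it called 1 NF-kB gene lower, as did limma-voom and upper-quartile scaling. Upper-quartile scaling left 3 double-stranded RNA binding proteins lower, and DESeq2's size factors left 0 JAK-STAT genes higher.

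With the replicate number as a block, 5 of the 9 genes passed as lower and 0 as higher, 2524 of all genes passed as higher and 2431 as lower, and in the lists 14 as higher and 20 as lower. The block left 3 double-stranded RNA binding proteins and 1 NF-kB gene lower and 1 ZAP cofactor and 0 JAK-STAT genes higher. The correlation of same-numbered libraries gave no sign of pairing. With each library left out, the lists held 3 to 9 genes higher and 9 to 13 lower. Those higher were 0 to 1 double-stranded RNA binding proteins, 0 to 1 ZAP cofactors, 0 JAK-STAT genes, 2 to 6 interferon-stimulated genes and 0 to 1 NF-kB genes. Those lower were 1 to 2 OAS genes, 0 to 1 double-stranded RNA binding proteins, 1 to 3 RIG-I to IRF3 genes, 2 to 3 ZAP cofactors, 0 to 1 JAK-STAT genes, 2 to 4 interferon-stimulated genes and 1 to 2 NF-kB genes.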
